A study of Mus musculus with 10 samples.

Results

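The miR-34 family is a set of small regulatory RNAs made from 3 hairpins, miR-34a, miR-34b and miR-34c. From a table of 1061 mature miRNAs measured in mouse retina, 5 were taken by name as its members, and the sixth arm, miR-34a-3p, is given beside them as the opposite arm of miR-34a. The table lists the members as mmu-miR-34a-5p, mmu-miR-34b-5p, mmu-miR-34c-5p, mmu-miR-34b-3p and mmu-miR-34c-3p, and the mouse prefix is left out below. The 5p and 3p labels name the arm of the hairpin from which a mature miRNA is cut. The retinas came from 5 wild type C57BL/6J mice at postnatal day 34, all without any transgene or deleted gene in the labels. A goggle with a -20 D lens had been fixed over 1 eye of every animal on postnatal day 24 and was kept for 10 days, a treatment that induces myopia, and the fellow eye had none. The left and the right retina of mice 61, 64, 65, 66 and 68 each gave 1 small RNA library, 10 in all. The labels do not give the side of the lens, so right was set against left in each mouse, and no eye is named as the treated one.

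Mature miRNAs guide Argonaute proteins to messenger RNAs that pair with the seed, the bases from position 2 to position 8 counted from the 5′ end. The genes of the miR-34 family are known as direct transcriptional targets of the tumour suppressor p53, and their products repress cell cycle and survival genes such as cyclin-dependent kinases and Bcl2. miR-34a is found in many tissues including neurons, whereas miR-34b and miR-34c come from 1 shared precursor transcript and are known for high levels in multiciliated epithelia, testis and some neurons. The small RNA libraries hold no measure of p53 itself, and the link to p53 is background here.

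The sequences below, from RefSeq in GRCm38.p6, show which of the matched members share a seed. Each is written 5′ to 3′ with the seed in capitals, and 4 of the 5 members were matched by name. The member without a match was miR-34c-5p, so its sequence is not shown and its seed was not compared. miR-34a-3p and the miR-449 relatives were added for comparison.
miR-34a-5p: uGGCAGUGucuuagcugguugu
miR-34b-5p: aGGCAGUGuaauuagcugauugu
miR-449a-5p: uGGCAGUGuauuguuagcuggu
miR-449c-5p: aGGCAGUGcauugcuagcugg
miR-34b-3p: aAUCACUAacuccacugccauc
miR-34c-3p: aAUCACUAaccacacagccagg
miR-34a-3p: aAUCAGCAaguauacugcccu
miR-34a-5p and miR-34b-5p had the seed GGCAGUG in common and were identical at 19 of 23 aligned positions. The same seed was found in miR-449a-5p and miR-449c-5p, which lie in an intron of Cdc20b on chromosome 13 and are also known from multiciliated cells. miR-34b-3p and miR-34c-3p shared another seed, AUCACUA, and were identical at 17 of 22 positions.

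The hairpins of miR-34a and miR-34b are shown because the balance of their arms differed in the data, with the mature arms in capitals, the 5p arm first.
Mir34a: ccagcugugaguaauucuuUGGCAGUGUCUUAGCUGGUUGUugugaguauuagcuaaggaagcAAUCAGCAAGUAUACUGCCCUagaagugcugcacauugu
Mir34b: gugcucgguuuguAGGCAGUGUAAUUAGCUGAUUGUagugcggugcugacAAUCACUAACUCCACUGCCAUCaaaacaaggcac
miR-34a-5p lay on the plus strand of chromosome 4 from 150068473 to 150068494 in GRCm38, outside other annotated genes. The other members lay on the minus strand of chromosome 9, miR-34b-5p from 51103610 to 51103632, miR-34b-3p from 51103574 to 51103595, miR-34c-5p from 51103076 to 51103098 and miR-34c-3p from 51103044 to 51103065. All of these positions on chromosome 9 are within an intron of Btg4, a protein-coding gene on the opposite strand, and the 5′ ends of miR-34b-5p and miR-34c-5p are 534 bases apart.

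The deposited values are normalised reads whose totals were nearly equal, from 17312269 to 17312436 per library, and the sequencing depth is unknown. Ordered from high to low, the values were equal in all libraries at 345 of the 1061 places, so a value follows the order of its library closely but not exactly. The labelled tissue was matched by its photoreceptor miRNAs, since the 5p arms of the miR-183, miR-96 and miR-182 hairpins summed to between 10550828 and 10579078 normalised reads in every library. Of these, miR-182-5p and miR-183-5p had the same values in all libraries, 9840430 and 689415. Since a value follows the order of its library, the closeness of the sums between libraries is no separate evidence. In 2 libraries a marker of another tissue stood apart. The right library of mouse 65 had 22384 normalised reads of miR-184-3p, a lens and cornea miRNA that spanned 988 to 2117 elsewhere. Other markers of the same list were not raised there. miR-205-5p was at 25.6 and miR-203-3p at 213, inside their ranges elsewhere of 10.9 to 49.4 and 194 to 228. The left library of mouse 68 had 1596 of the muscle miRNA miR-133a-3p, which spanned 241 to 359 elsewhere. The muscle miRNA miR-1a-3p was also highest there, at 26.6 against 0 to 8.24 elsewhere. In a bulk retina, fewer cells of a type and less RNA per cell cannot be told apart.

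miR-34c-5p was the most abundant member. Its normalised reads in the left and right retina were 1098 and 988 in mouse 61, 1148 and 1054 in mouse 64, 1054 and 941 in mouse 65, 1054 and 1020 in mouse 66, and 1020 and 1115 in mouse 68. The 10 libraries were close to each other, and left and right values overlapped. Its mean of 1049 ± 61.1 (SD over 10 libraries) placed it at rank 110 of the 1061 miRNAs. In single libraries its rank lay between 106 and 114, so the spread of its values covers a shift of a few places in the order.

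miR-34a-5p, the member most often studied as a p53 target, was present at a much lower level. Its normalised reads in the left and right retina were 59.5 and 61.2 in mouse 61, 70.2 and 59.5 in mouse 64, 77.4 and 55.4 in mouse 65, 93.5 and 78.2 in mouse 66, and 50.8 and 42.2 in mouse 68. Mouse 66 had the highest value on each side and mouse 68 the lowest, and left and right overlapped. The mean was 64.8 ± 15.1 (SD over 10 libraries), rank 294. The seed relative miR-449a-5p had nearly the same mean, 67.6 ± 9.66, and was the higher of the pair in 6 of 10 libraries, whereas miR-449c-5p was listed at 0 in 7 libraries and at no more than 1.42 in the others.

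miR-34b-5p, from the same precursor transcript as miR-34c-5p, was uneven across libraries. Its normalised reads in the left and right retina were 16.5 and 2.41 in mouse 61, 1.97 and 0.989 in mouse 64, 22.8 and 74.7 in mouse 65, 27.6 and 13.9 in mouse 66, and 1.14 and 25.6 in mouse 68. In 4 libraries, both of mouse 64, the right of mouse 61 and the left of mouse 68, it was at 2.41 or lower, and in the other 6 at 13.9 or higher. The highest value was 75.5 times the lowest, against 2.21 times for miR-34a-5p and 1.22 times for miR-34c-5p. The library with the most miR-34b-5p, the right retina of mouse 65, was also the one with the most miR-184-3p. Whether lens or cornea tissue had a part in the value was not tested. Without that library the highest miR-34b-5p value was 27.6 normalised reads.

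The 3p arms had the lowest means of the 5 members. miR-34b-3p was at 7.25 and 4.2 normalised reads in the left and right retina of mouse 61, 4.56 and 1.83 in mouse 64, 8.95 and 7.54 in mouse 65, 12.2 and 17.2 in mouse 66, and 16.9 and 1.70 in mouse 68. miR-34c-3p was at 8.05 and 4.2 in mouse 61, 5.77 and 3.09 in mouse 64, 4.43 and 4.86 in mouse 65, 4.60 and 3.50 in mouse 66, and 4.85 and 3.70 in mouse 68. Left and right overlapped for both arms, and both had means below 10 normalised reads, 8.23 and 4.71, under the level needed for testing. miR-34a-3p, the opposite arm of the miR-34a hairpin, was listed at 0 in 5 of 10 libraries and at no more than 2.14 in the others.

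**Figure D1:**
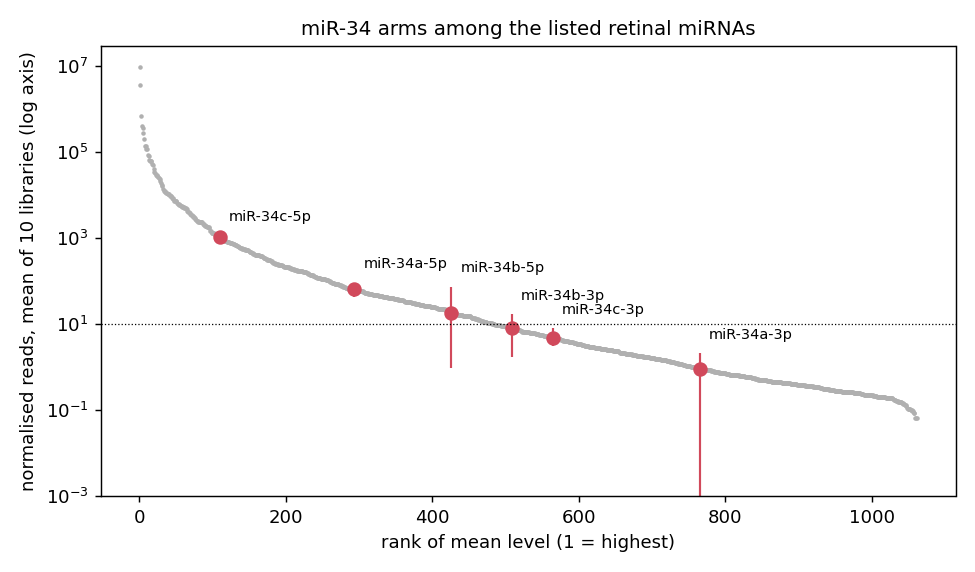
Mean normalised reads over 10 libraries (log axis) against the rank of the mean for the miRNAs of the table in grey, with the miR-34 arms as red points. Vertical lines run from the lowest to the highest library, the line of miR-34a-3p runs to the edge of the plot because 5 libraries list it at 0, and the dotted line marks the mean of 10 normalised reads needed for testing. miR-34c-5p stands at rank 110 and miR-34c-3p at rank 565.

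**Figure D2:**
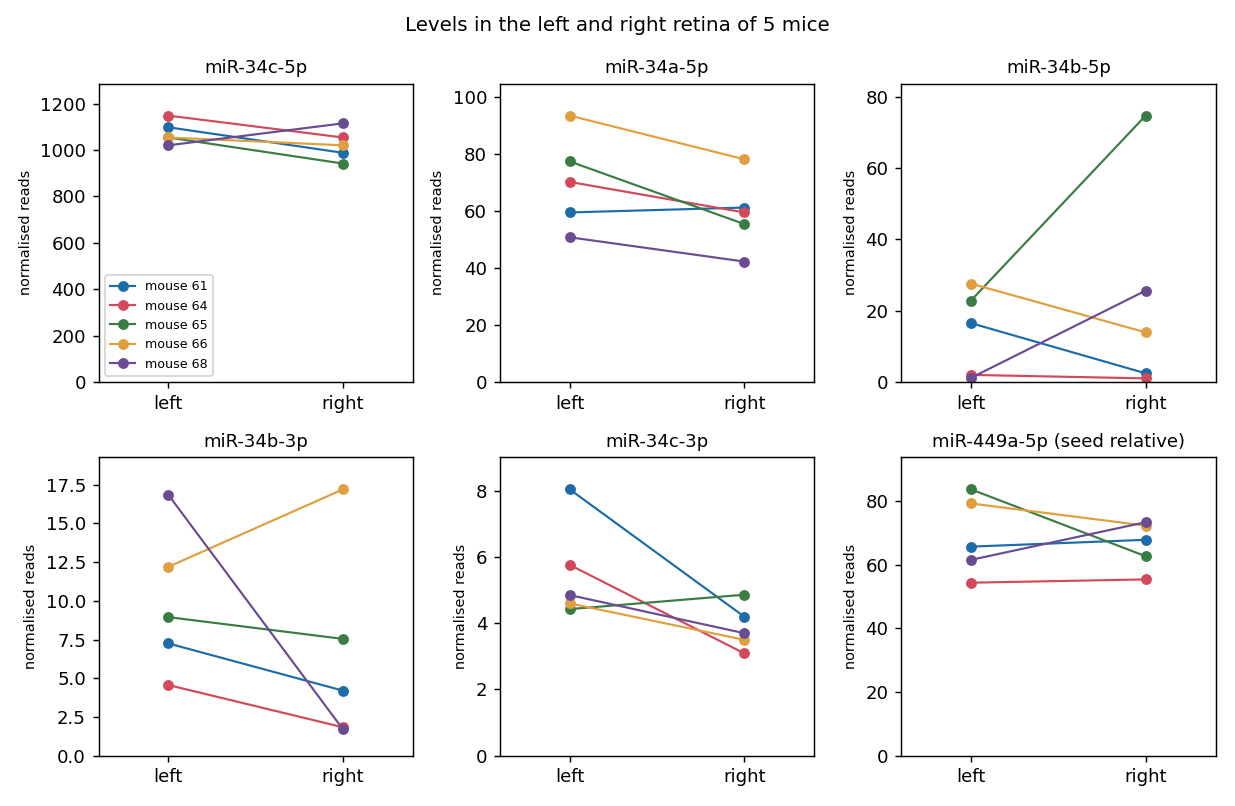
Normalised reads in the left and right retina, 1 panel per miRNA, with a line joining the retinas of a mouse. miR-34c-5p stays between 941 and 1148, whereas miR-34b-5p runs from 0.989 to 74.7.

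Within libraries the order of the members was stable at the top and not at the bottom. All 5 members together summed to between 1060 and 1231 normalised reads per library, of which miR-34c-5p took from 86.9% to 94.2% and miR-34a-5p from 3.56% to 7.85%. miR-34c-5p exceeded miR-34a-5p in 10 of 10 libraries, by 4.03 ± 0.33 on the log2 scale (SD over 5 mice, the log2 scale being log2 of value plus 1). miR-34a-5p exceeded miR-34b-5p in 9 of 10 libraries, by 2.62 ± 1.49, and the exception was the right retina of mouse 65. This difference was 1.67 when 10 was added before the log in place of 1, 2.09 without mouse 64 and 3.12 without mouse 65. miR-34b-3p and miR-34c-3p did not differ beyond their spread, with a difference of 0.45 ± 0.78. The first was higher in 5 libraries, the second in 4, and the other library had a tie. The ligation of adapters depends on sequence, so these are differences of normalised reads and not of molecules.

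The arm balance of the 3 hairpins was compared in the same way. In the miR-34c hairpin the 5p arm was higher in 10 of 10 libraries, by 7.56 ± 0.20 on the log2 scale (SD over 5 mice). In the miR-34a hairpin it was higher in 10 of 10 libraries by 5.27 ± 0.64. Since miR-34a-3p was at 0 in 5 libraries, this size depends on the value added before the log, and it was 5.90 with 0.5 and 2.76 with 10. The difference in the miR-34c hairpin was 6.17 with 10. In the miR-34b hairpin, 5 libraries had more of the 5p arm and 5 more of the 3p arm, with a mean difference of 0.45 ± 1.07. Both extremes lay in mouse 68, -3.06 in its left retina and 3.30 in its right retina. Without mouse 65 the mean difference was 0.015. Over the 7 pairs compared, including miR-34a-5p with miR-449a-5p, an exact two-sided sign-flip test on the 5 mouse means gave p = 0.063 for both arms of miR-34c, both arms of miR-34a, miR-34c-5p with miR-34a-5p and miR-34a-5p with miR-34b-5p. This is the smallest p that 5 mice allow, and its Benjamini-Hochberg value over the pairs was 0.109. The exact p was 0.5 for the arms of miR-34b, 0.375 for miR-34b-3p with miR-34c-3p and 0.688 for miR-34a-5p with miR-449a-5p.

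Right and left retinas were compared within mice. The study set the eye with the lens against its fellow eye, and since the labels do not give the side of the lens, the right minus left difference does not answer that question. No member passed the test. In normalised reads (SD, n = 5 per side), miR-34c-5p had a left mean of 1075 ± 49.5 and a right mean of 1023 ± 65.7. The left and right means of miR-34a-5p were 70.3 ± 16.5 and 59.3 ± 12.9, and those of miR-34b-5p were 14.0 ± 12.02 and 23.5 ± 30.3. The 3 members with a mean of at least 10 normalised reads were tested with limma on log2(value + 1) among 484 miRNAs, with mouse as a block. Of the 484 miRNAs 0 (0%) were past an adjusted p of 0.05, and 12 (2.48%) had an unadjusted p under 0.05, with 0 of the 3 members among them. Without mouse 65 the latter count was 62, with 0 of the 3 among them, and without mouse 61 it was 10, with miR-34a-5p among them (unadjusted p by limma 0.0256, adjusted p 1).

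Among the tested members miR-34a-5p had the smallest p. Its log2 fold change, right minus left, was -0.24 (SE 0.10), with an unadjusted p of 0.0550 and an adjusted p of 0.958 by limma. In 4 of 5 mice the right value was the lower one, by 0.24 to 0.48, and in mouse 61 it was 0.04 higher. The 95% interval of the fold ran from 0.717 to 1.005, so a 2-fold difference between right and left lies outside it.

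miR-34c-5p had a log2 fold change of -0.07 (SE 0.08, adjusted p by limma 0.964). The right value was the lower one in 4 of 5 mice and 0.13 higher in mouse 68. Its interval was narrow, from 0.836 to 1.08 in fold. Without mouse 68 the log2 fold change was -0.12.

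For miR-34b-5p the log2 fold change was 0.29 (SE 0.87, adjusted p by limma 0.982), and the mice went in different directions. The right minus left difference was -2.36 in mouse 61, -0.58 in mouse 64, 1.67 in mouse 65, -0.94 in mouse 66 and 3.64 in mouse 68. Without mouse 65 the log2 fold change was -0.06 and without mouse 68 it was -0.55, so its sign rested on these animals. They are also the animals whose libraries stood apart in miR-184-3p (right retina of mouse 65) and miR-133a-3p (left retina of mouse 68). The other libraries with miR-34b-5p at 2.41 or lower had miR-133a-3p within 241 to 359 normalised reads. Whether other tissue had a part in the sign was not tested. The interval of the fold, from 0.288 to 5.17, leaves a 2-fold difference in either direction inside it.

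The 2 members under the filter got no test with the others. miR-34b-3p had a mean difference of -0.82 ± 1.19 on the log2 scale (SD over 5 mice, exact sign-flip p = 0.188, two-sided), of which -2.72 in mouse 68 was the largest and 0.46 in mouse 66 the only value above 0. Without mouse 68, whose left library had the high miR-133a-3p, its mean difference was -0.35. Whether muscle tissue had a part was not tested. miR-34c-3p had -0.41 ± 0.37 (exact sign-flip p = 0.125), with -0.80 in mouse 61 and 0.11 in mouse 65. When all 1061 miRNAs were fitted with limma without a filter, their adjusted p was 0.950 each, with 0 of 1061 miRNAs (0%) past the threshold and 25 (2.36%) at an unadjusted p under 0.05.

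A lower value in the right retina of at least 4 of 5 mice was found for miR-34a-5p, miR-34c-5p, miR-34b-3p and miR-34c-3p, which is 4 of 5 members. This count was chosen after the values were seen. Among all miRNAs of the table this pattern had a share of 13.6%, and among the 484 tested of 17.8%, with 14.9% in the opposite direction. The mouse that went the other way differed for each of these members: mouse 61 for miR-34a-5p, 68 for miR-34c-5p, 66 for miR-34b-3p and 65 for miR-34c-3p. The arms on chromosome 9 come from 1 transcript and all members were measured in the same libraries, so they are not independent observations.

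**Figure D3:**
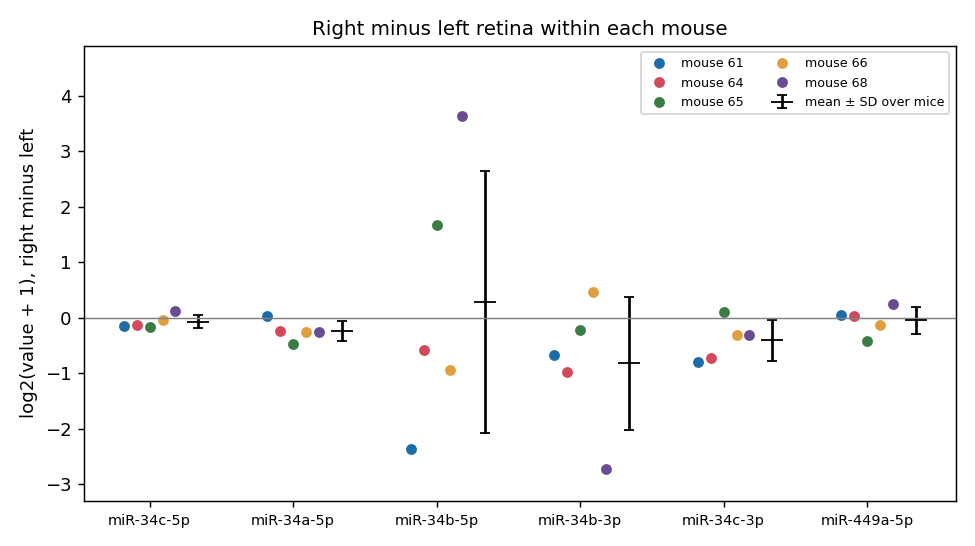
Difference of log2(value + 1), right minus left retina, for each mouse (points) with the mean and SD over 5 mice (black). Differences of miR-34c-5p stay between -0.16 and 0.13, and those of miR-34b-5p spread from -2.36 to 3.64.

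Mice were then compared with each other, by a moderated F test of limma over the mouse terms of the same fit. The mean of both retinas for miR-34a-5p was 60.3 normalised reads in mouse 61, 64.8 in mouse 64, 66.4 in mouse 65, 85.8 in mouse 66 and 46.5 in mouse 68. Its F was 7.54 with an unadjusted p of 0.0137 and an adjusted p of 0.182 by limma, so it did not pass. The F was 3.63 with no filter on low values, and it ranged from 2.81 without mouse 68 and 3.30 without mouse 66 to 12.9 without mouse 65 and 13.0 without mouse 61, with no adjusted p by limma under 0.115. Of the 484 miRNAs 8 (1.65%) passed, among them 0 of the 3 tested members, and 68 (14.0%) had an unadjusted p under 0.05. The count of 8 became 3 without mouse 68, 4 without mouse 64 or 66, and 5 without mouse 61. The mouse means of miR-34b-5p ran from 1.48 to 48.7 normalised reads, and its F was 2.64 (adjusted p by limma 0.498), or 7.23 without mouse 68. The F of miR-34c-5p was 0.375 (adjusted p by limma 0.942). Both retinas of a mouse may also share handling, and this was not tested.

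The spread of each member over the 10 libraries was set against that of the 484 tested miRNAs. miR-34b-5p had an SD of 1.86 on the log2 scale, the second highest of the 484. miR-34c-5p had an SD of 0.08, rank 23 from the lowest, and miR-34a-5p one of 0.33, above the median of 0.28. The SD was smaller at higher levels, the median SD being 0.38 in the 169 tested miRNAs with a mean below 50 normalised reads and 0.22 in the other 315. miR-449a-5p, at almost the level of miR-34a-5p, had an SD of 0.20.

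**Figure D4:**
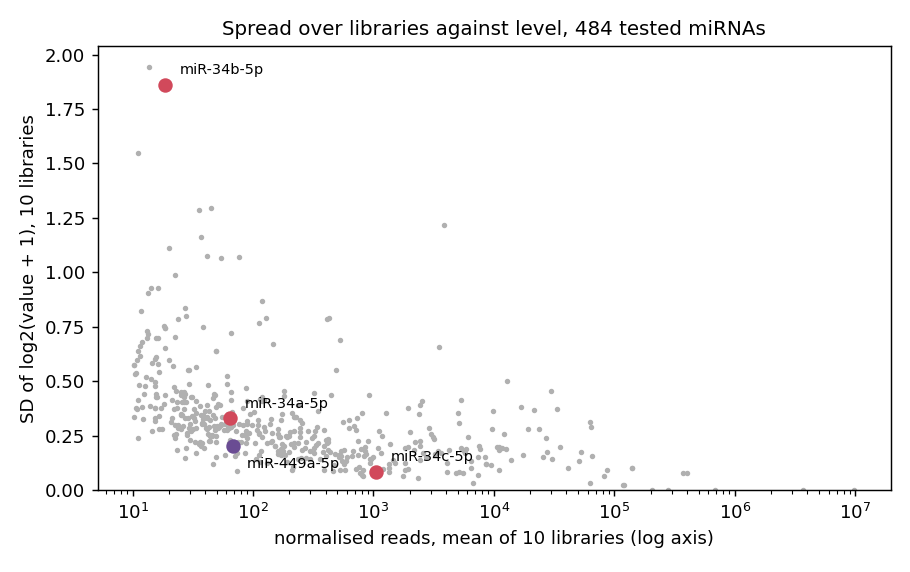
SD of log2(value + 1) over 10 libraries against mean normalised reads (log axis) for the 484 tested miRNAs in grey, with the tested miR-34 members in red and miR-449a-5p in purple. miR-34b-5p lies at an SD of 1.86, near the top of the plot, and miR-34c-5p at 0.08.

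The members did not follow each other closely across the 10 libraries, which are 5 pairs of retinas and share the normalisation. Pearson's r of the log2 values was 0.12 between miR-34a-5p and miR-34b-5p, 0.01 between miR-34a-5p and miR-34c-5p, and -0.21 between miR-34b-5p and miR-34c-5p. The arms of the miR-34b hairpin had r = 0.19 and those of the miR-34c hairpin 0.26. Over all pairs of members r ran from -0.35, for miR-34c-5p with miR-34b-3p, to 0.49, for miR-34a-5p with miR-34b-3p. Values of the lowest miRNAs are imprecise, and a weak correlation among them is no finding.

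The miRNA whose pattern was most like that of miR-34b-5p, among 478 compared, was miR-218-5p, a miRNA hosted by the Slit genes and known from motor neurons. Its r was 0.96 over 10 libraries, against 0.78 for miR-425-5p and 0.77 for miR-181a-1-3p, the next most alike. The normalised reads of miR-218-5p in the left and right retina were 382 and 282 in mouse 61, 299.99 and 277 in mouse 64, 350.03 and 428 in mouse 65, 382 and 373 in mouse 66, and 296 and 366 in mouse 68. Its 4 lowest libraries were the 4 lowest of miR-34b-5p, the right retina of mouse 65 was the highest for both, and right minus left had the same sign in 5 of 5 mice. The range of miR-218-5p was small, from 277 to 428, and its mature sequence has a different seed, shown here to compare the letters with those of miR-34b-5p above.
miR-218-5p: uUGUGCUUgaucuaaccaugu
The pair was chosen as the highest r of 478, so the value is a description with no test.

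**Figure D5:**
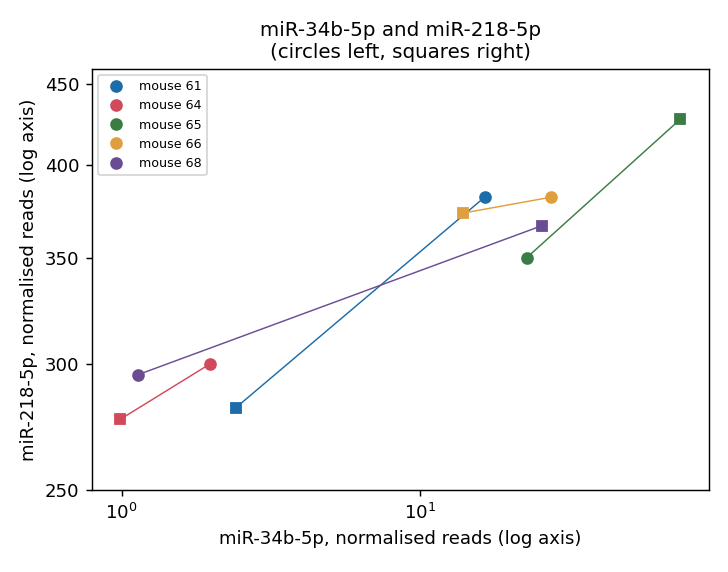
Normalised reads of miR-218-5p against miR-34b-5p in 10 libraries (both axes log), circles for left and squares for right retinas, with a line joining the retinas of a mouse. The 4 libraries with miR-34b-5p at 2.41 or lower have miR-218-5p between 277 and 299.99, and the other 6 lie at 350.03 or higher.

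For miR-34a-5p the most alike were miR-25-3p with r = 0.87, miR-423-3p with 0.83 and let-7d-5p with 0.82 over the same 10 libraries. miR-423-3p had its highest value, 6491 normalised reads, in the left retinas of mice 65 and 66 and its lowest, 3345, in the right retina of mouse 68. That last library was also the lowest for miR-34a-5p. For miR-34c-5p the values were lower, with r = 0.74 for miR-195a-3p, 0.73 for miR-101a-5p and 0.72 for miR-3470b.

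Other miRNAs of the p53 pathway were read from 2 lists. The first holds 10 miRNAs that p53 induces or whose processing it favours, such as miR-192-5p, miR-194-5p, miR-215-5p and miR-145a-5p, and 9 of them were tested. By limma 0 of the 9 passed in right minus left retina, with 5 above 0, 4 below and a median of 0.00, against -0.01 for all 484. Its most abundant members were miR-16-5p, with left and right means of 40275 ± 1210 and 41889 ± 4251 normalised reads, and miR-143-3p, with 17459 ± 2058 and 17488 ± 2089 (SD, n = 5). Both are reported to be processed with the help of p53, and their log2 fold changes were 0.05 and 0.00.

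The second list holds 4 miRNAs reported to target Trp53, the mouse p53 messenger, and all 4 were tested. By limma 0 of the 4 passed, with 2 above and 2 below 0 and a median of 0.01. The log2 fold change was -0.14 for miR-30d-5p, the most abundant, and 0.05 for miR-125b-5p. In the comparison among mice 0 miRNAs of either list passed, against 1.65% of all tested. An unadjusted p under 0.05 was found for 1 of 9 and 1 of 4, against 14.0% of all tested.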

How the data were processed

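Small RNA libraries of 10 mouse retinas were made with a TruSeq small RNA kit from column-purified small RNA, per the labels' protocols. The submitters' processing notes name Bowtie, Partek, mm10 and GRCm38; for trimming, miRNA annotation, normalisation and reads shared by similar miRNAs, the method is not given in the sources used here. Deposited values are a signal, the authors' normalised read counts, equal at 345 ranks in all libraries as quantile normalisation gives. Depth cannot be recovered, and no counting intervals were possible. The table held 0 columns of other samples.

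Those miRNAs whose mean over the 10 libraries reached 10 (484 of 1061, 3 of the 5 members) were fitted as log2(value + 1), which understates changes of low miRNAs, with limma 3.58.1 in R 4.3.3: side and mouse as terms, empirical Bayes with trend, two-sided tests and Benjamini-Hochberg adjustment over all 484. Mouse was a term because both retinas come from 1 animal. Same-mouse deviations correlated by 0.0893 to 0.382 across miRNAs (median 0.159). Between mice they correlated by -0.338 to 0.355 (median -0.0824), and the ranges overlap. Deviations were taken from the mean of the 5 mice on each side, which by itself lowers the values between mice. Right minus left p-values weigh the mean difference against its variation over these 5 animals, moderated across miRNAs. The F test weighs differences among mice against the spread left between both retinas of a mouse. The fit was tested on simulated independent normal log2 values. These lack the ranks of equal value seen in the deposited data, so that test does not cover this feature. Alternatives were the pseudocount, the filter, the scaling, the trend, the block and leaving out each mouse.

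Table ends were 1 base past RefSeq ends for 908 of 908 matched miRNAs, so ends are given as the last base. Genes are from GENCODE for GRCm38. Members and lists were chosen with earlier results of these data known. Named miRNAs are the members, those with their seed and the 3 most alike by Pearson's r for each tested member. From each p53 list the 2 most abundant were given with values, with any that passed. miR-184-3p and miR-133a-3p are the most abundant of their lists. Values of the other marker lists were used only to look for libraries that stand apart. Of those lists, the neuronal miR-128-3p passed the test among mice (adjusted p by limma 0.0039).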

Additional observations from a re-analysis of the deposited data

Results flagged for a closer look

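In 2 of 44 groups of 5 values checked, 1 library lay far from the others; chance flags about 1 group in 20. For miR-184-3p it was the right library of mouse 65, with 22384 normalised reads against 1898 to 2117 on the right side of other mice. For miR-133a-3p it was the left library of mouse 68, with 1596 against 273 to 331 on the left side of other mice. These libraries held the highest (74.7) and the second lowest (1.14) values of miR-34b-5p, and their part in them was not tested.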

How the results depend on the processing

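Under the 12 alternatives, no miR-34 member passed the right minus left test where it was tested, and 0 miRNAs passed in each. miR-34b-5p was under the mean of 50 and so had 11. miR-34b-3p and miR-34c-3p were tested only in the alternative with no filter on low values. The sign changed for miR-34b-5p, whose log2 fold change was -0.06 without mouse 65 and -0.55 without mouse 68 and ranged from -0.55 to 0.95 when each mouse was left out. miR-34a-5p ranged from -0.31 (without mouse 61) to -0.18 (without mouse 65) and miR-34c-5p from -0.12 to -0.05. miR-449a-5p ranged from -0.12 to 0.048 (without mouse 65), and miR-34a-5p minus miR-449a-5p from -0.16 to 0.030 (without mouse 68). Without the replicate block the log2 fold change of miR-34a-5p was -0.24 (adjusted p by limma 1), and 0 miRNAs passed, so the pairing changed no call. The number of miRNAs that differed among mice was 8, 5 with no trend, 10 with median-ratio scaling and from 3 (without mouse 68) to 7 (without mouse 65) when each mouse was left out. With a pseudocount of 10 the arm difference of miR-34c was 6.17 and that of miR-34a 2.76; the alternative adds 10 to 3p values below 10. Right minus left gave 62 miRNAs with an unadjusted p below 0.05 without mouse 65 and 7 to 10 without another mouse. Depth is unknown, and values of a few normalised reads limit the 3p arms most.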
